A study of Mus musculus with 18 samples.

Results

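The cells described here are the macrophages and microglia of a mouse glioma, as captured in 1 Drop-seq library of a Ras-driven tumour. They were chosen by a rule on 8 genes: a barcode was a member if at least 2 of C1qa, C1qb, C1qc, Tyrobp, Fcer1g, Csf1r, Lyz2 and Cd74 were detected and the 8 genes together made up at least 4 of every 1000 unique molecular identifiers (UMIs, the tags that mark single captured RNA molecules). Of 5000 barcodes, 4901 had at least 300 UMIs, at least 200 genes and at most 20% mitochondrial UMIs, and 177 of these were members, 3.61% (exact 95% interval 3.11% to 4.17%). They were set beside the 4083 kept barcodes in which none of the 8 genes was detected, and the other 641 kept barcodes held some of the 8 without meeting the rule. The tumour came from the Boy/J strain, was driven by HRasV12 with a dominant negative p53 and was untreated. A 10x Chromium library of an untreated tumour of the same driver and strain was read beside it. So were 8 libraries of whole Ras tumours, 4 from mice given PLX3397, an inhibitor of the receptor CSF1R, by mouth at 100 mg/kg daily from 7 days after implantation until they were moribund, and 4 from mice given vehicle on the same schedule. The vehicle libraries also carry the treatment label untreated. Levels were also read in 2 cell lines grown from Ras tumours in serum-free medium, and in CD11b-positive cells of PDGFB-driven tumours after 3 days of PLX3397 (2 libraries) or vehicle (1 library) from day 14. All of these mice were Boy/J, and the labels do not say how many tumours went into either single-cell library.

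Macrophages of a glioma have a pair of origins: microglia, which settle in the brain before birth and renew themselves there, and monocytes, which enter from the blood. Both depend on signals through CSF1R, and both take up and digest debris, make the complement starter C1q and can present peptides to T cells on MHC class II molecules. Tyrobp and Fcer1g are membrane adaptors that carry the signals of many myeloid receptors, Lyz2 is the lysozyme of myeloid cells, and Cd74 is the invariant chain that escorts MHC class II molecules to the endosome.

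The promoter windows of a few leading genes are shown because these genes stand among those highest in members by the ratios and levels given further on, and because their windows hold the letters bound by factors known to act in these cells. C1qc is a rule gene, so its level is high by the choice of members. PU.1, the transcription factor that myeloid cells need, binds around the letters GAGGAAG, and the factor NF-Y binds the Y box, CTGATTGG, in front of MHC class II genes. The windows are those of RefSeq for GRCm38.p6, from 250 bases before to 50 bases after the start of the gene, with the motif (on either strand) in capitals and the rest in lower case. Itgam (the CD11b integrin chain) is chr7:128062390-128062689 on the plus strand, Ctss (the cysteine protease cathepsin S) is chr3:95526536-95526835 on the plus strand, and C1qc (a chain of C1q) is chr4:136892865-136893164 on the minus strand. H2-Aa and H2-Eb1, chains of MHC class II molecules, are chr17:34287774-34288073 on the minus strand and chr17:34305617-34305916 on the plus strand.
Itgam: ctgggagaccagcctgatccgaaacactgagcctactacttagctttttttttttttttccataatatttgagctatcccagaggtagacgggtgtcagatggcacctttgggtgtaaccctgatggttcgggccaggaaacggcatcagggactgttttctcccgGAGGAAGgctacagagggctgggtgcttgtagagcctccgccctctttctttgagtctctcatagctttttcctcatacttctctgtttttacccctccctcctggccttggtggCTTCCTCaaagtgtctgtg
Ctss: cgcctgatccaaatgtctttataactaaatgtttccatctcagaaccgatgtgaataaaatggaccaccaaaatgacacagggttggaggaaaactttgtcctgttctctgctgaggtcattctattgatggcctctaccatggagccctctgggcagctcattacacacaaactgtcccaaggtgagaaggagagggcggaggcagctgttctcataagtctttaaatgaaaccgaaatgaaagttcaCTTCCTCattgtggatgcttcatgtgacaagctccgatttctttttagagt
C1qc: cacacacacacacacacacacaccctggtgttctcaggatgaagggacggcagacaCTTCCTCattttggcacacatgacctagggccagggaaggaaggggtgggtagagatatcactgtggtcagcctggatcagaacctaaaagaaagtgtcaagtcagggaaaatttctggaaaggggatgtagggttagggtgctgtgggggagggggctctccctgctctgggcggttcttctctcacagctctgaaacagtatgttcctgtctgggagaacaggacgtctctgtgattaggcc
H2-Aa: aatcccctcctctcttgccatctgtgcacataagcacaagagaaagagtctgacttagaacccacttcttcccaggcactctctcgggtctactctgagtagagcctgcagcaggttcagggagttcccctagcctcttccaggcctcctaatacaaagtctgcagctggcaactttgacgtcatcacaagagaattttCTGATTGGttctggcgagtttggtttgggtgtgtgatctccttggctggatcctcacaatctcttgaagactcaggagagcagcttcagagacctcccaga
H2-Eb1: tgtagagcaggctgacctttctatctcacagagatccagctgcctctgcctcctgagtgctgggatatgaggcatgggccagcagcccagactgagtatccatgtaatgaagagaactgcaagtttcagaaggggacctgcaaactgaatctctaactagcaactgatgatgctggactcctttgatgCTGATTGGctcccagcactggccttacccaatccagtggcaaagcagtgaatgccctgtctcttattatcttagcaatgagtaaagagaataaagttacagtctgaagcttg
The letters GAGGAAG, on either strand, were present in 40 of the 150 windows matched among the 193 genes at least 10-fold higher in members (26.7%), in 16.1% of the windows of all genes tested in the Drop-seq library and in 15.4% of the windows of all 27025 genes given a window. Among the rule genes they were present in 1 of the 4 windows matched (C1qc), and in the MHC class II list in 0 of 7. The letters CTGATTGG were present in 3 of the 7 windows matched among the MHC class II list (H2-Aa, H2-Eb1 and H2-Oa), in 6.95% of those of the genes tested and in 4.70% of all windows. In the windows of the genes at least 10-fold higher in members their share was 7.33%. The first motif lies 84 bases before and 31 bases after the start in Itgam, 1 base before it in Ctss and 194 before it in C1qc, and the Y box lies 51 bases before it in H2-Aa and 62 in H2-Eb1. No window printed holds both motifs, and a match is a run of letters, not a measured site.

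**Figure D1:**
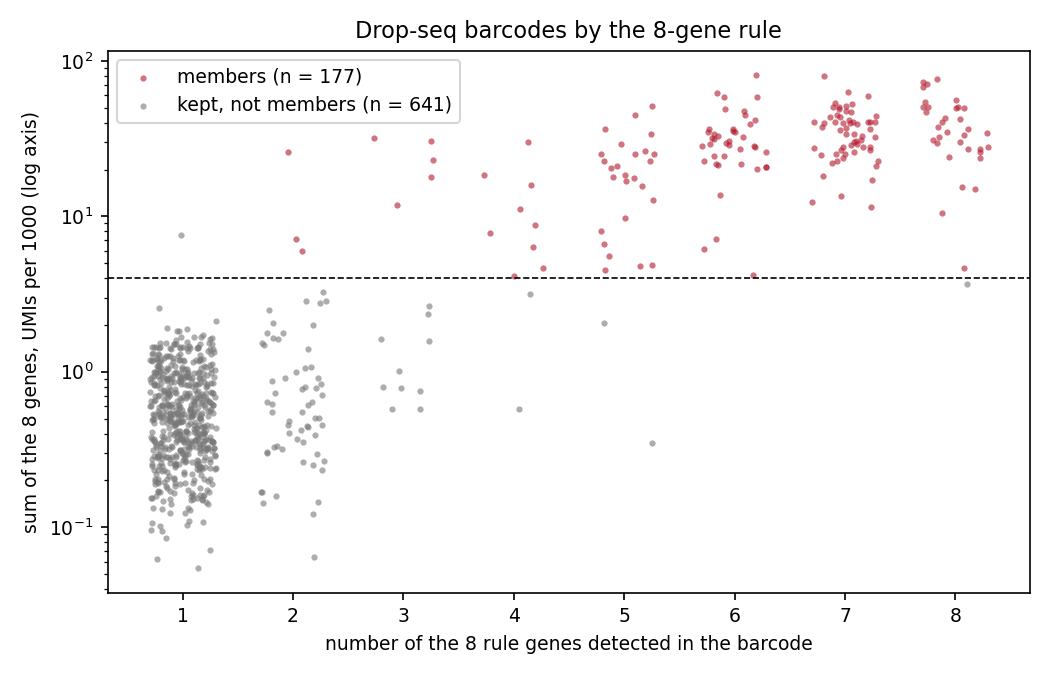
Each point is a kept Drop-seq barcode with at least 1 of the 8 rule genes. The horizontal axis is the number of the 8 genes detected, with points spread sideways for sight. The vertical axis is their sum in UMIs per 1000 on a log scale, and the dashed line is the limit of 4. The 177 members lie above the line, and 159 of them at 10 or more per 1000.

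Few barcodes lay near the limit, with 8 members at 4 to 6 per 1000 and 3 other barcodes with at least 2 of the genes at 3 to 4. Members had a median sum of 29.5 per 1000 UMIs, and 134 of the 177 held at least 6 of the 8 genes (41 with 6, 59 with 7 and 34 with all 8). The members just inside the limit had sums of 4.14, 4.20 and 4.49 per 1000, and the barcodes with at least 2 of the genes just outside it had 3.68, 3.28 and 3.19 per 1000. The highest of those outside held all 8 genes in 10067 UMIs. The members were small libraries, with a median of 1087 UMIs and 657 genes, beside 1337 UMIs and 880 genes in the cells with none. The mitochondrial share had a median of 3.81% in members and 4.67% in the cells with none. A single member stood apart, with 23898 UMIs against 4284 in the next deepest. It held 9.32% of all UMIs of the members with a sum of only 4.65 per 1000, and levels of single genes in members include it. Sums of gene lists are given without it too where they are printed and leave their counting interval.

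Levels are pooled UMIs per 10,000 over the cells of a set, 256312 UMIs in members and 7431268 in the cells with none, with exact Poisson 95% intervals. They cover counting error only, since there is 1 library and no replicate, so no difference between sets has a test. Levels are per molecule counted at the 3' end and are not divided by gene length.

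The 8 genes of the rule are given as a description of who was chosen, and nothing rests on them. C1qa stood at 41.3 UMIs per 10,000 in members (38.8 to 43.8), with a median of 5 UMIs per cell, and was detected in 162 of 177. C1qb stood at 41.4, detected in 166, and C1qc at 34.1, detected in 158. Cd74 was the highest of the 8 with 61.5 per 10,000, and was detected in 125 members (70.6%). Lyz2 stood at 58.3, detected in 142, with 181 UMIs in the highest cell beside a median of 3. Tyrobp stood at 17.95, detected in 148, Fcer1g at 17.4, detected in 147, and Csf1r at 4.25, detected in 70 (39.6%). All 6 marker genes of the label are rule genes, so they cannot check it. Genes outside the rule are described next, and a gene counted only because of its UMIs in members is a description too.

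Of 11317 genes with at least 50 UMIs over both sets, leaving out the 8, 193 (1.71%) were at least 10-fold higher in members than in the cells with none, and 983 (8.69%) at least 2-fold higher. Of the 193, 117 reached the minimum only with their UMIs in members and so had to be high there. Among the 11066 genes with 50 UMIs in the cells with none alone, a filter chosen after seeing the data, 76 (0.687%) were at least 10-fold higher, 803 (7.26%) at least 2-fold higher and 1795 (16.2%) at least 2-fold lower. Counts for gene lists below use this second filter. For 159 and 443 genes of the first filter the whole counting interval of the ratio lay beyond 10-fold and 2-fold. At least 2-fold lower were 1795 genes (15.9%), of which 182 had the whole interval beyond 2-fold. A gene needed at least 174 UMIs in the cells with none before 3 UMIs in members could count as 2-fold lower, so low genes could not be seen to be lower at this depth. The median of all genes tested was a log2 ratio of -0.46.

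**Figure D2:**
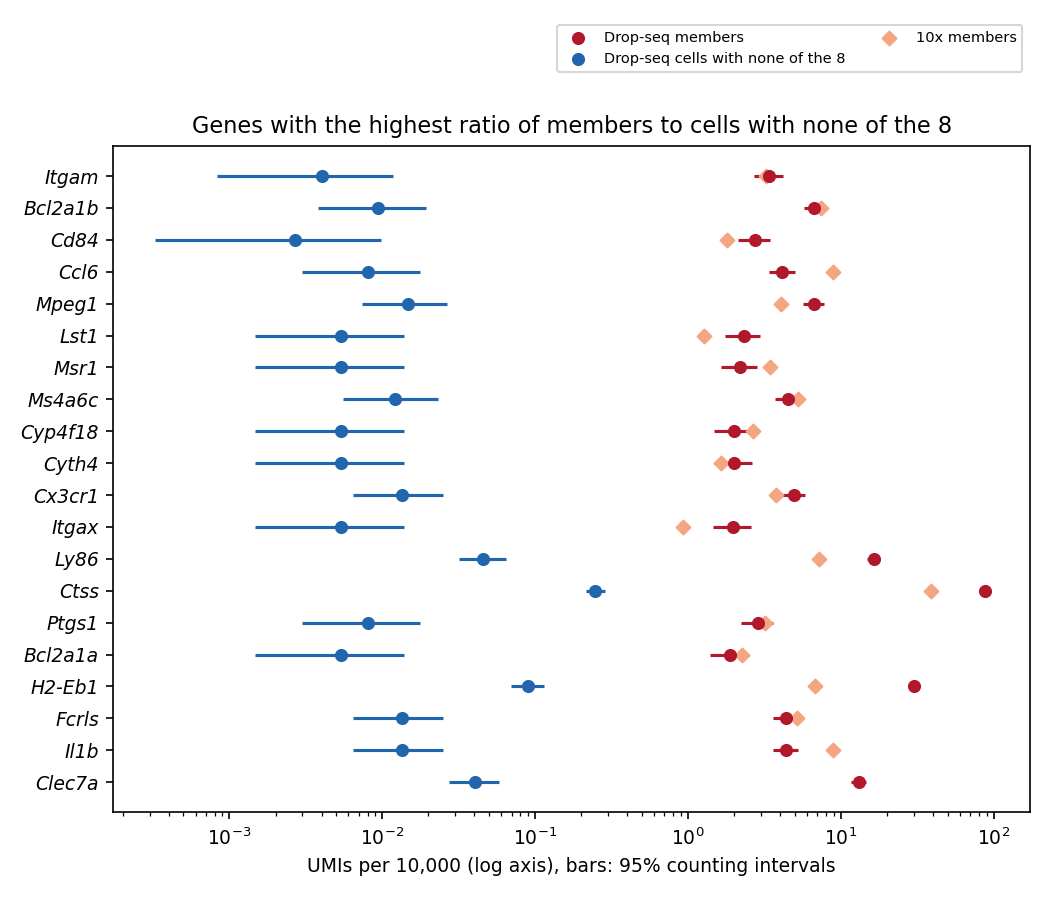
UMIs per 10,000 on a log axis for the 20 genes with the highest ratio of members to cells with none of the 8, in Drop-seq members (red), Drop-seq cells with none (blue) and 10x members (orange diamonds, no interval drawn, none for Clec7a). Bars are 95% counting intervals. The red points lie from 1.87 to 87.9 per 10,000, and every blue point lies below 0.25.

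The genes with the highest ratios, ranked with counts under 3 raised to 3, included genes of myeloid adhesion, uptake and digestion. Of the leading 20, only Ctss and H2-Eb1 had at least 50 UMIs in the cells with none (184 and 67). The others passed only with their UMIs in members and so had to be high there. Their ratios are a description. Itgam, the integrin chain known as CD11b, stood at 3.36 per 10,000 in members and 0.00404 in the cells with none, which held 3 UMIs of it, a ratio of 831 (275 to 4109). It was detected in 59 of the 177 members. Itgax, the integrin chain known as CD11c, stood at 1.95 in members and 0.00538 in the cells with none, a ratio of 362 (133 to 1382). Thus integrins by which myeloid cells are often sorted were detected in a minority of the members, at levels far above the other cells. Cd84, a receptor of the SLAM family on leukocytes, stood at 2.73 in members against 2 UMIs in all of the cells with none, a ratio of 1015 (271 to 8544). Mpeg1, the pore-forming perforin-2 of macrophages, stood at 6.63 in members and 0.0148 in the cells with none, a ratio of 448 (244 to 915).

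Enzymes and receptors of uptake were among them. Ctss stood at 87.9 per 10,000 in members and 0.248 in the cells with none, a ratio of 355 (305 to 415), and was detected in 172 of 177 members with a median of 11 UMIs per cell. It was the most often detected of the 20 leading genes and is the cathepsin that cuts the invariant chain. Msr1, the scavenger receptor A, stood at 2.19 in members and 0.00538 in the cells with none, a ratio of 406 (150 to 1541). Clec7a, the beta-glucan receptor dectin-1, stood at 13.03 in members and 0.0404 in the cells with none, a ratio of 323 (222 to 486). The survival genes Bcl2a1b and Bcl2a1a, near-identical copies of 1 family whose reads may be split between them, stood at 6.67 and 1.87 in members, with 7 and 4 UMIs in the cells with none. Ptgs1, the cyclooxygenase COX-1, stood at 2.85 in members, Ly86, the partner of the receptor RP105, at 16.4, and the cytokine gene Il1b at 4.37, with ratios of 353, 357 and 325. Il1b was detected in 51 members, with 11 UMIs in the highest cell. The other genes of the leading 20 were Ccl6, Lst1, Ms4a6c, Cyp4f18, Cyth4, Cx3cr1 and Fcrls, with 51 to 126 UMIs in members and 4 to 10 in all of the cells with none.

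Apoe, which carries lipids out of cells, was the most abundant transcript of the members outside the mitochondrial and ribosomal protein genes. It stood at 384.6 per 10,000 (377.1 to 392.3), against 3.58 (3.44 to 3.72) in the cells with none, a ratio of 107.5. It was detected in 171 members with a median of 43 and a maximum of 427 UMIs per cell. It was also detected in 39.1% of the cells with none, and the part of free RNA in the droplets in this was not tested. Next after Malat1 and Actb came Fth1, the heavy chain of ferritin, with 96.05 in members and 10.9 in the cells with none, Ctss, and Tmsb4x, an actin-binding peptide, with 74.5 in members and 15.9 in the cells with none.

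Antigen presentation was strong and uneven. Of the 10 genes of the MHC class II list, 4 had 50 UMIs in the cells with none, and these 4 were at least 10-fold higher. Together the 10 genes of the list made 101.1 UMIs per 10,000 in members (97.2 to 105.1), 107.2 without the deepest member, and 0.484 in the cells with none. H2-Ab1 stood at 39.3 per 10,000 in members and 0.201 in the cells with none, a ratio of 196 (165 to 234). H2-Eb1 stood at 30.0 in members and 0.0902 in the cells with none, a ratio of 333 (259 to 434), and H2-Aa stood at 24.8 in members and 0.0875 in the cells with none, a ratio of 284 (220 to 372). From cell to cell the list ran from 0 in 29 members through a median of 71.0 to 725 per 10,000. With every cell thinned to 500 UMIs, 72.3% of members (65.1% to 78.8%) and 2.28% of the cells with none held a UMI of the list. All 7 genes of the MHC class I list that passed were at least 2-fold higher, and 6 of them 10-fold. B2m, the light chain of class I molecules, stood at 60.1 in members and 4.54 in the cells with none.

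Lysosomal genes were detected in every member. All 12 genes of the lysosome list that passed were at least 2-fold higher and 6 of them 10-fold. The list summed to 194.5 per 10,000 in members, 210.4 without the deepest member, and 17.6 in the cells with none, and no member lacked it. It ran from 22.5 through a median of 192 to 613 per 10,000 over the members, beside a median of 14.6 in the cells with none. The cathepsin Ctsd stood at 46.2 in members and 1.53 in the cells with none, and Ctsb at 31.1 in members and 1.53 in the cells with none. Of the list of Fc receptors and signalling adaptors only Ctss passed. The 14 genes summed to 131.2 in members, 143.3 without the deepest member, and 0.499 in the cells with none. Ctss alone gave 87.9 of the 131.2 in members and 0.248 of the 0.499 in the cells with none. In the same list Laptm5, a lysosomal membrane protein of blood cells, stood at 7.88 in members and 0.0296 in the cells with none. Aif1, the actin-bundling protein IBA1, stood at 9.68 in members and 0.0552 in the cells with none. All 7 genes of lipid handling that passed were at least 2-fold higher, and 1 was 10-fold higher. Lpl, lipoprotein lipase, which did not pass, stood at 3.43 in members and 0.0390 in the cells with none. These counts stand beside 7.26% of all genes that passed at 2-fold and 0.687% at 10-fold.

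Chemokine genes were high in some members. Of that list 2 genes passed, both at least 2-fold and 1 of them 10-fold higher, and the 14 genes summed to 32.3 in members, 35.2 without the deepest member, and 0.397 in the cells with none. Ccl4, which attracts leukocytes, stood at 6.32 per 10,000 in members and 0.0377 in the cells with none, but was detected in only 56 of the 177. Ccl12, a monocyte attractant of mice, stood at 3.82 in members and 0.0162 in the cells with none, and Ccl6 at 4.14 in members and 0.00807 in the cells with none. All 6 genes of the interferon response list that passed were at least 2-fold higher, 2 of them 10-fold, with Bst2, the virion tether tetherin, at 5.77 in members and 0.233 in the cells with none. Of the immediate early genes, which dissociation of tissue is known to induce, 4 of 10 were at least 2-fold higher. The share over all genes that passed was 7.26%. The list as a whole differed little, with 55.1 in members, 58.5 without the deepest member, and 51.8 in the cells with none. Egr1 was lower in members, 12.3 against 21.8 in the cells with none, and Junb higher, 11.0 against 2.68.

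Genes listed for both origins were present. Of 4 genes of homeostatic microglia that passed, 2 were at least 10-fold higher and 2 were within 2-fold. The latter were Sparc, with a ratio of 1.17, and Sall1, with 4 UMIs in members and a ratio of 0.885 (0.238 to 2.32). The 14 genes of the list summed to 45.7 per 10,000 in members, 50.1 without the deepest member, and 4.80 in the cells with none. Trem2, a lipid-sensing receptor that signals through Tyrobp, stood at 5.03 in members and 0.0256 in the cells with none. Cx3cr1, the fractalkine receptor, stood at 4.92 in members and 0.0135 in the cells with none. Trem2 and Cx3cr1 did not pass. The genes most often used to tell resting microglia apart were low: P2ry12, a purine receptor, had 15 UMIs in 7.34% of members (0.585 per 10,000) and Tmem119 38 UMIs in 15.3% (1.48 per 10,000). Of 4 genes of the monocyte-derived list that passed, 3 were at least 2-fold higher, 1 of them 10-fold, and 1 was at least 2-fold lower, and the 15 genes summed to 36.0 in members, 39.3 without the deepest member, and 1.71 in the cells with none. Arg1, an arginase that marks alternatively activated macrophages, stood at 14.2 in members and 0.0444 in the cells with none, detected in 76 members with up to 39 UMIs in a cell. Ccr2, the receptor by which monocytes leave the marrow, had 21 UMIs in 7.34% of members. The list of border macrophages, which line the vessels and meninges, summed to 8.15 in members, with Mrc1 at 1.053 and Pf4 at 1.33, and Cd163 was at 0. A count of 0 is read throughout as up to 3 counts over the set, 0.117 per 10,000 in all members.

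**Figure D3:**
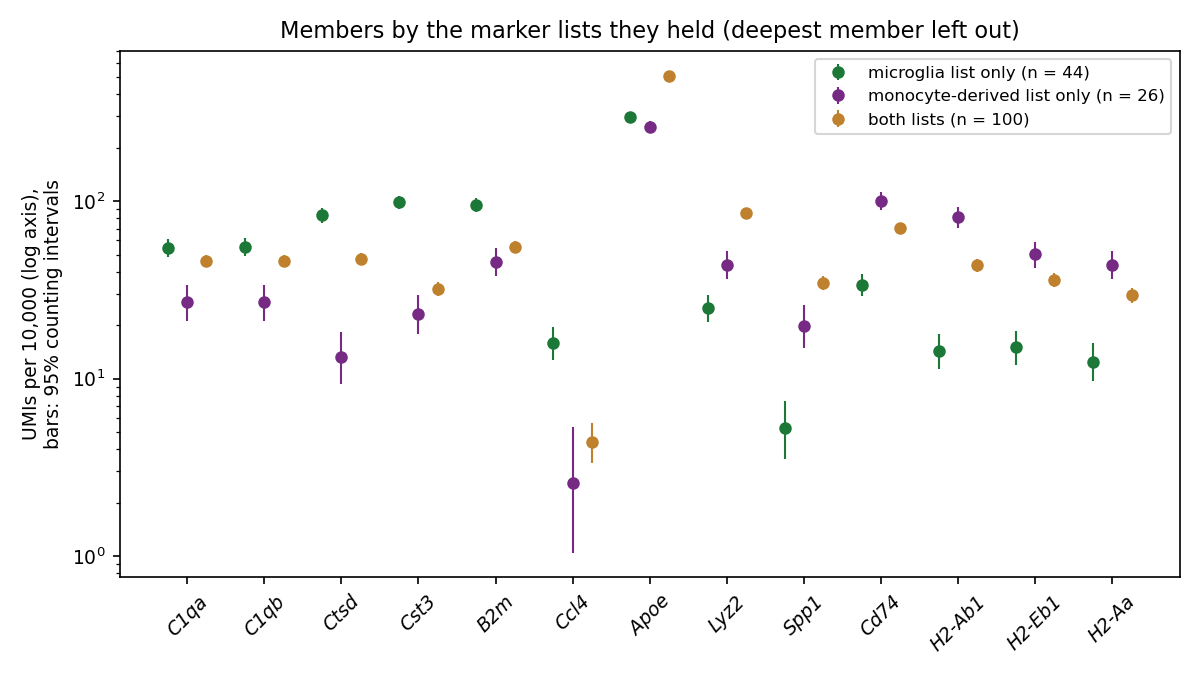
UMIs per 10,000 on a log axis in members that held only microglia list genes (44 cells, green), only monocyte-derived list genes (26 cells, purple, the deepest member left out) or both (100 cells, brown). Bars are 95% counting intervals. The green points are higher for C1qa, Ctsd, Cst3, B2m and Ccl4, and the purple points for Cd74 and the MHC class II genes. C1qa and Cd74 are rule genes.

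At full depth most members held markers of both lists, but with every cell thinned to 500 UMIs most did not. For this the lists were trimmed, after their values were seen, to the 10 microglia and 12 monocyte-derived genes at no more than 0.1 per 10,000 in the cells with none, and a member was placed by having any UMI of each. Both lists were present in 100 members (56.5%), only the microglia list in 44 (24.9%), only the monocyte-derived list in 27 (15.3%) and neither in 6. The placing moved with depth, since the median was 1245 UMIs in members with both and 1036 and 899 in those with only the microglia or only the monocyte-derived list. At 500 UMIs per cell the numbers were 59 with both, 49 with each list alone and 20 with neither. In the cells with none of the 8, 1.45% held a UMI of the trimmed microglia list and 4.36% of the trimmed monocyte-derived list.

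The sets differed in genes that neither list contains. The deepest member, which held 2 UMIs of the monocyte-derived list and 0 of the microglia list, was left out of these levels. MHC class II genes were lower in microglia-only members than in monocyte-only members: H2-Ab1 stood at 14.3 per 10,000 (11.3 to 17.8) against 81.3 (71.0 to 92.8), H2-Aa at 12.5 against 43.8, and Cd74 at 33.8 against 100.1. The reverse held for Ctsd, at 83.1 (75.7 to 91.1) in microglia-only members against 13.3 (9.28 to 18.3) in monocyte-only members, for Cst3, the protease inhibitor cystatin C, at 98.7 against 23.2, and for Ccl4 at 15.9 against 2.58. C1qa stood at 54.4 in microglia-only members and 26.9 in monocyte-only members. Cst7, an inhibitor of cathepsins, stood at 5.06 in microglia-only members and at 0 in monocyte-only members, where 3 counts would be 1.104. Spp1, the secreted protein osteopontin, was highest in members with both lists, at 34.7, beside 5.24 in microglia-only and 19.9 in monocyte-only members. Lyz2 was ordered alike, at 85.5 in members with both, 24.9 in microglia-only and 43.8 in monocyte-only members. None of these differences has a replicate.

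**Figure D4:**
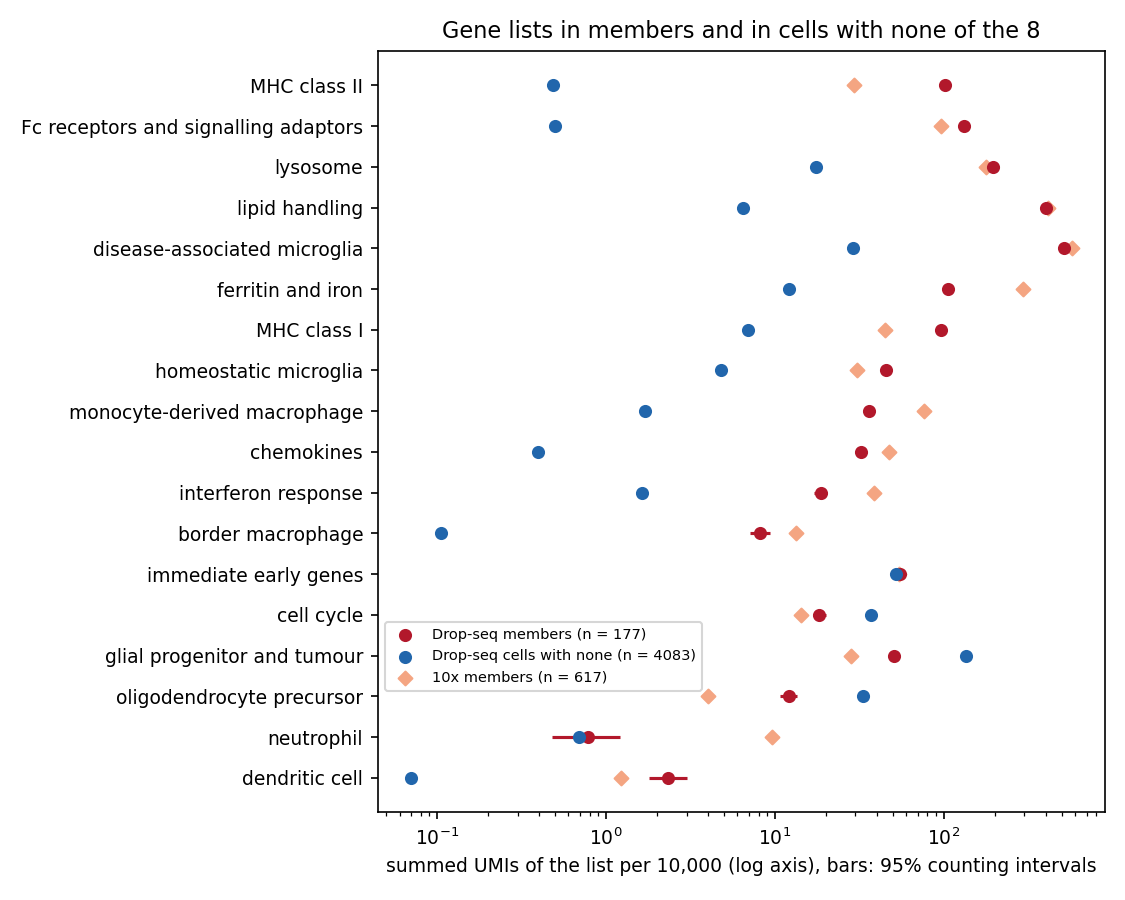
Summed UMIs of 18 gene lists per 10,000 on a log axis, in Drop-seq members (red, with 95% counting intervals), Drop-seq cells with none of the 8 (blue) and 10x members (orange diamonds). The red points lie right of the blue for the immune lists, close to the blue for immediate early genes and the neutrophil list, and left of it for the cell cycle, tumour and oligodendrocyte precursor lists.

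Genes of the tumour were lower in members without being absent. Of 13 tested genes of the list of glial progenitors and tumour cells, 10 were at least 2-fold lower, 3 were neither and none was higher. Over all genes that passed, 16.2% were at least 2-fold lower. The list summed to 50.6 per 10,000 in members and 136.1 in the cells with none, and to 38.4 without the deepest member, 28.2% of the level in the cells with none. Over cells its median was 21.95 in members and 131.6 in the cells with none. At least 3 genes of the list were detected in 66 members (37.3%) and in 95.4% of the cells with none. Of the oligodendrocyte precursor list 6 of 7 tested genes were at least 2-fold lower, such as Olig1, with 4.10 in members and 12.6 in the cells with none. Of the genes with the lowest ratios, Tnc, which encodes the matrix protein tenascin-C, had 3 UMIs in members (0.117 per 10,000) and 1.51 per 10,000 in the cells with none, a ratio of 0.0774 (0.0159 to 0.227), and Itga8, an integrin chain, had 2 UMIs in members and 1.07 per 10,000 in the cells with none. The other 8 of the 10 lowest, Sh3d19, Tubb4b, Bex4, Dtd1, Trim24, Ier5l, Gna11 and Igf2bp2, had 1 to 3 UMIs in members. Doublets and free RNA as sources of the remaining tumour UMIs were not tested.

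Cell cycle genes were lower in members but present. Of 18 tested genes, 10 were at least 2-fold lower and 8 were neither, beside 16.2% lower over all genes that passed. The list summed to 18.3 per 10,000 in members and 37.0 in the cells with none. Top2a, which untangles DNA before division, stood at 2.46 in members and 4.85 in the cells with none, and Mki67, the antigen Ki-67, at 1.41 in members and 1.86 in the cells with none. With every cell thinned to 500 UMIs, 40.1% of members (32.8% to 47.7%) and 57.5% of the cells with none held a UMI of the list, and unthinned 67.2% of members and 81.1% of the cells with none did. At least 3 genes of the list were detected in 39 members (22.03%).

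Many defining markers of other blood and vessel cells were at 0, and some genes of their lists were not. Of the neutrophil list, S100a8, S100a9, Retnlg and Ltf were at 0 in members, and the 9 genes in the table summed to 0.780 per 10,000 in members and 0.689 in the cells with none. Csf3r, the receptor for the growth factor of granulocytes, had 10 UMIs in members, a ratio of 290 (41.3 to 12580). Of the T cell list, 7 of 9 genes were at 0, Cd3e, Cd3d, Cd3g, Cd8a, Trac, Trbc2 and Lck among them, and all 6 natural killer genes and all 5 genes of the erythroid list in the table were at 0. The B cell list summed to 0.312 in members. The dendritic cell list summed to 2.34 in members and 0.0700 in the cells with none, of which Siglech, which microglia also express, gave 1.52. Batf3 and Naaa of that list had 9 UMIs each in members, ratios of 26.1 and 65.2, and Flt3, Zbtb46, Xcr1 and Ccr7 were at 0. The endothelial list summed to 1.56 in members and 0.599 in the cells with none, and 18.6% of members and 5.05% of the cells with none held a UMI of it. In it Flt1, a VEGF receptor, stood at 0.975 in members and 0.257 in the cells with none, Pecam1, an adhesion molecule of vessels and leukocytes, had 9 UMIs in members, a ratio of 14.5, and Cldn5 and Cdh5 were at 0. The part of such cells in the results was not tested.

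In the 10x library the same rule chose 617 of 3320 kept barcodes, 18.6% (17.3% to 19.95%), against 3.61% in the Drop-seq library. The 10x barcodes were kept at 500 UMIs and 300 genes and were deeper, with a median of 5662 UMIs in members against 1087 in Drop-seq members, and the labels do not say whether both libraries came from the same tumour. Depth, method and any difference between tumours cannot be told apart here. The barcodes were of different lengths, 12 bases in Drop-seq and 16 in 10x, and no barcode was shared. The 10x members were set beside 903 barcodes with none of the 8, 27.2% of those kept, against 83.3% in Drop-seq. The other 1800 kept 10x barcodes, with a median of 14530 UMIs, held some of the 8 and were left out. The same rule chose the members of both libraries, so sharing of genes between them is partly built in and is a description. With the first filter, which genes high in members can pass by their UMIs there, 187 Drop-seq genes at 10-fold were tested in both. Of these, 186 (99.5%) were at least 2-fold higher in 10x members too, against 8.26% of the 9659 genes tested in both and 14.5% of all 10x genes. At 10-fold, 152 were shared, 81.3% of the Drop-seq genes and 85.4% of the 178 10x genes tested in both, where 1.84% of the genes tested in both and 6.37% of all 10x genes reached 10-fold, and 32.9% of all 10x genes were at least 2-fold lower. At 2-fold, 605 were shared, 67.8% of the 893 Drop-seq genes and 75.8% of the 798 10x genes tested in both. The 1 Drop-seq gene at 10-fold that was not 2-fold higher in 10x was Vcam1, an adhesion molecule, with 25 UMIs in Drop-seq members and a ratio of 1.48 in 10x.

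The levels of some groups differed between the libraries. The MHC class II list summed to 101.1 per 10,000 in Drop-seq members and 29.5 in 10x members, with H2-Ab1 at 39.3 in Drop-seq members and 9.61 in 10x members. The monocyte-derived list stood at 36.0 in Drop-seq members and 76.2 in 10x members, with Fn1, the matrix protein fibronectin, at 7.02 in Drop-seq members and 27.4 in 10x members, and Arg1 at 14.2 in Drop-seq members and 22.8 in 10x members. The microglia list was nearer, at 45.7 in Drop-seq members and 30.7 in 10x members, and Apoe stood at 384.6 in Drop-seq members and 397.1 in 10x members. Spp1 stood at 22.8 in Drop-seq members and 95.2 in 10x members. Ferritin light chain Ftl1, a gene with many near-identical copies, stood at 3.20 in Drop-seq members and 116.9 in 10x members, and its values are uncertain since reads of such copies can be split. The neutrophil list stood at 0.780 in Drop-seq members and 9.67 in 10x members. Leaving out the 55 10x members with at least 3 genes of that list put it at 1.33, with the MHC class II list at 30.5 and the monocyte-derived list at 75.9. With 1 library of each kind these differences have no test.

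**Figure D5:**
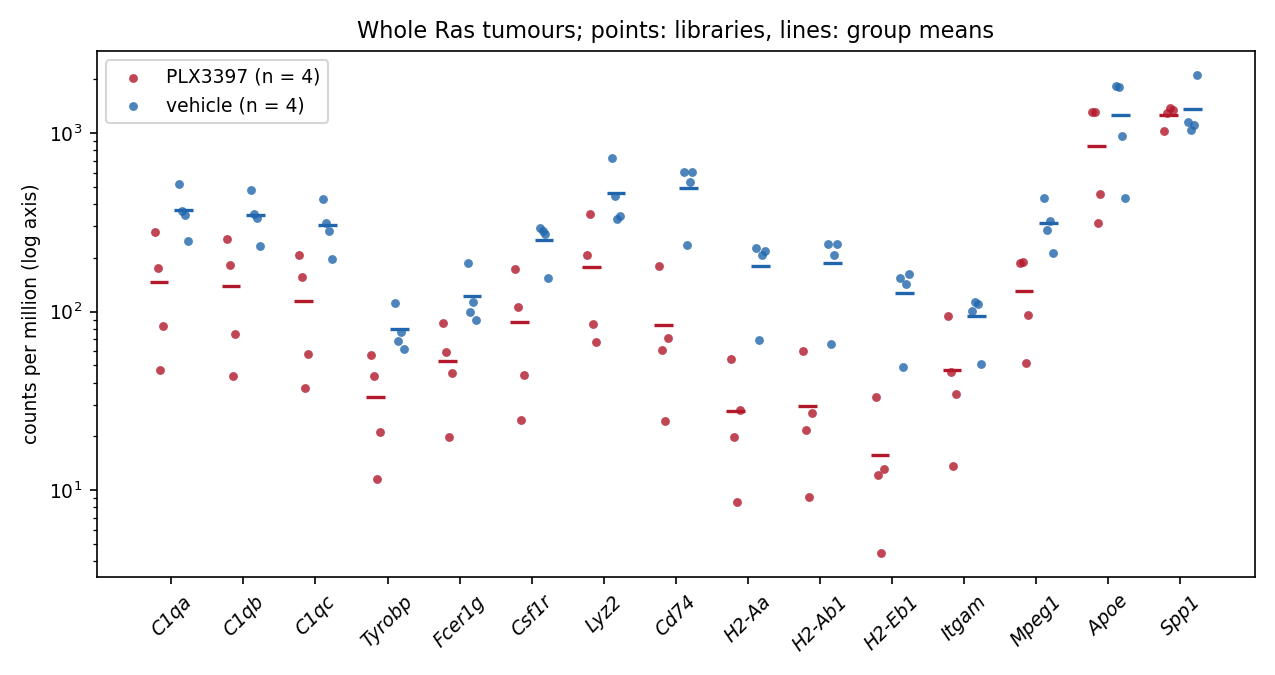
CPM on a log axis in whole Ras tumours of mice given PLX3397 (red, left in each pair) or vehicle (blue), with a point for each of 4 libraries per group and a line at the mean. For H2-Aa, H2-Ab1, H2-Eb1, Cd74, Tyrobp, Fcer1g and Mpeg1 every red point lies below every blue one, while for Apoe and Spp1 the groups overlap.

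In whole tumours the genes of these cells could be followed across treatment, on libraries the rule did not use. Levels in the whole tumours are counts per 1000000 counts of a library (CPM), after the library sizes were adjusted by edgeR's TMM factors. The depth was 31.2 M to 35.8 M counts per library (M is 1000000). In bulk tissue fewer cells of a type and less RNA per cell cannot be told apart. Cd74 stood at 179, 60.6, 24.3 and 70.7 CPM in the PLX3397 tumours, against 606, 234.7, 532 and 602 CPM in the vehicle tumours. Every PLX3397 tumour was below every vehicle tumour, with a log2 fold of -2.56 (SE 0.60, unadjusted p = 0.00261, adjusted p = 0.485 by edgeR's quasi-likelihood test). H2-Aa stood at 54.5, 19.9, 8.52 and 28.1 CPM in the PLX3397 tumours, against 226, 69.6, 207 and 217.6 CPM in the vehicle tumours. Again the groups did not overlap, with a log2 fold of -2.70 (SE 0.60, adjusted p = 0.443). C1qa stood at 278, 175.8, 46.9 and 82.8 CPM in the PLX3397 tumours, against 518, 366, 346 and 247 CPM in the vehicle tumours. The highest PLX3397 tumour was above the lowest vehicle tumour, and the log2 fold was -1.34 (SE 0.52, adjusted p = 0.9998). Csf1r, the target of the drug, stood at 173, 106, 24.6 and 44.3 CPM in the PLX3397 tumours, against 293, 283, 270.7 and 154.9 CPM in the vehicle tumours, and these groups overlapped too.

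No gene passed at an adjusted p under 0.05 in this comparison, of the 18366 tested. All 8 rule genes had lower means under PLX3397, with log2 folds of -1.22 to -2.56, and each had an unadjusted p under 0.05. Of the 193 genes at 10-fold in Drop-seq members, 190 were tested, and 169 had a log2 fold below 0, with a median of -0.66. Over all 18366 genes, 9128 were below 0 and the median was 0.00. At an unadjusted p under 0.05, 71 of the 190 (37.4%) were lower, against 3.11% of all genes tested. In 49 of the 190 (25.8%) every PLX3397 tumour was below every vehicle tumour, against 2.09% of all genes. DESeq2, run beside edgeR, called 174 of the 35842 genes given to it, 171 of them lower. Of these 171, 22 were among the 190. The list was chosen with these results known, so its median is a description.

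The libraries of a group differed much from each other. The PLX3397 tumour of replicate 3 was the lowest of the 8 for 121 of the 190 genes, against 11.1% of all genes, and the vehicle tumour of replicate 1 was the highest for 126 of them, against 11.2% of all genes. Without the vehicle tumour of replicate 1 the median log2 fold of the 190 was -0.43, and without the PLX3397 tumour of replicate 3 it was -0.49.

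By role, antigen presentation stood furthest from 0. All 10 genes of the MHC class II list were lower in the PLX3397 tumours, 9 of them at an unadjusted p under 0.05, and the median log2 fold was -2.48. Counts of lower and higher genes here stand beside 9128 lower and 9238 higher among all 18366 genes tested. H2-Eb1 averaged 15.7 ± 12.2 CPM in the PLX3397 tumours and 127 ± 52.5 CPM in the vehicle tumours (SD, n = 4 each). Its log2 fold was -3.02 with an SE of 0.64, and edgeR gave an adjusted p of 0.426. The border macrophage list had a median of -1.64, with Mrc1, the mannose receptor, at 16.0 ± 13.2 CPM in the PLX3397 tumours and 70.2 ± 48.2 CPM in the vehicle tumours. Fc receptors and adaptors had a median of -1.30, with 14 of 14 lower, and microglia genes -0.87, with 12 of 14 lower. The monocyte-derived list had a median of -0.31 with 12 of 15 lower, and Arg1 averaged 52.5 ± 27.6 CPM in the PLX3397 tumours and 42.2 ± 17.03 CPM in the vehicle tumours. MHC class I genes, which other cells also make, had a median of 0.00, and lysosome genes -0.22. The interferon response list ran the other way, with 13 of 14 genes higher in the PLX3397 tumours and a median of 0.30, and the chemokine list had 8 of 14 higher and a median of 0.01. None of these list genes passed the test. Among lists of other brain cells, all 8 oligodendrocyte genes had higher means in the PLX3397 tumours, with a median of 0.68, and 7 of 8 astrocyte genes, with a median of 0.47. The oligodendrocyte list summed to 344 to 1727 CPM in the PLX3397 tumours and 62.8 to 954 CPM in the vehicle tumours, and its part in the results was not tested.

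Abundant transcripts of the members overlapped between the groups. Apoe averaged 845.5 ± 535 CPM in the PLX3397 tumours and 1262 ± 684 CPM in the vehicle tumours, and Spp1 averaged 1267 ± 164 CPM in the PLX3397 tumours and 1359 ± 513.5 CPM in the vehicle tumours (SD, n = 4 each). In the Ras lines, scaled by their own totals without TMM factors, Apoe stood at 44.1 and 186.9 CPM and Spp1 at 2839 and 112 CPM. By contrast the rule genes were absent or nearly so from the lines: C1qa stood at 0.0559 and 0 CPM, Csf1r at 0.279 and 0 CPM, and Cd74 and Tyrobp at 0 in both. Of the 190 genes at 10-fold found in the line table, 78 and 87 were under 1 CPM in the lines, against 1 to 3 in the whole tumours. The share of all genes under 1 CPM was not computed, so these counts are a description only. In CD11b-positive cells of PDGFB tumours, a table scaled by its own totals, C1qa stood at 2714 and 1918 CPM after PLX3397 and 2240 CPM after vehicle, and Cd74 at 1309 and 1833 CPM after PLX3397 and 3250 CPM after vehicle. The 191 genes at 10-fold found there had medians of 346 and 300 CPM after PLX3397 and 363 CPM after vehicle, again without a median over all genes.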

How the data were processed

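Both single-cell tables were deposited as raw UMI counts per gene and barcode, and the authors left the bulk tables as raw read counts. The submitters' processing notes name the build GRCm38, STAR 2.6.1e, Cell Ranger, featureCounts 1.6.2, cutadapt 1.9.1, Trim Galore 0.4.2 and FastQC 0.11.7, and which step used which is not given in the sources used here. From the counts, levels per 10,000 UMIs, ratios and exact intervals (Poisson, binomial, Clopper-Pearson) at 95% were computed with SciPy 1.17.1, and a set at 0 was put at 3 counts over the set for a ratio. Doublets were not called. Bulk counts were tested with the edgeR 4.0.16 quasi-likelihood test (robust, TMM, default filter, Benjamini-Hochberg) in R 4.3.3, with DESeq2 1.42.0 beside it. Left out were 27 date-like gene names (at most 0.281% of a library), 1 unnamed CD11b entry, and 5 line columns that match no sample. The labels number the mice behind the bulk libraries. Named genes were the 8 rule genes, the 20 highest and 10 lowest ratios (mitochondrial, ribosomal and predicted genes left out), and up to 3 genes per list with most UMIs in members, of which 1 is not reported here. P2ry12, Tmem119, Sall1, Sparc, Ccr2, Mki67, Cst3, Cst7, Vcam1, Malat1, Actb and Tmsb4x, and the markers named as 0, were added after their values were seen. The members and lists were chosen with earlier results of these data known.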

Additional observations from a re-analysis of the deposited data

Results flagged for a closer look

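In the whole Ras tumours, 7 of 82 groups of 4 libraries had a library apart from the other 3 by more than Dixon's 95% critical value. Chance gives about 1 in 20. Csf1r stood at 154.9 CPM in the vehicle tumour of replicate 4, below the other vehicle tumours. The same tumour had the highest Spp1, at 2126 CPM, and the highest Fn1, at 4032 CPM. Ms4a6c, a membrane gene of myeloid cells, stood at 13.7 CPM in the PLX3397 tumour of replicate 3, below the other PLX3397 tumours. H2-Eb1 and H2-Aa stood at 49.1 and 69.6 CPM in the vehicle tumour of replicate 2, below the other vehicle tumours. Ms4a7 stood at 36.1 CPM in the vehicle tumour of replicate 1, above the others.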

How the results depend on the processing

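The share of Drop-seq members stayed within its counting interval under every alternative tried. The number of genes at least 2-fold higher (983) was 486 with every cell thinned to 500 UMIs, 1637 with 20 UMIs per gene, 3668 with no minimum, 179 with 300 UMIs and 443 where the whole counting interval had to pass, the last 2 settings chosen after seeing the data, as was a minimum of 50 UMIs in the cells with none alone (803). The number at least 2-fold lower (1795) was 1058 thinned and 182 by the whole interval. The 10x share (18.6%) was 21.1% with a sum of at least 2 per 1000 and 15.1% with at least 8. Among single genes, the neuronal gene Nefl turned to a ratio of 0.681 without barcodes above the 95th percentile of UMIs and 0.544 without members holding neutrophil or lymphocyte UMIs, and Ighm to 0.315 against all other kept barcodes. In the whole tumours the count of called genes (0, with 648 at an unadjusted p under 0.05) was 174 by DESeq2 and 1 without the filter on low counts, and it ranged from 0 to 0 over the 8 fits that each left out a library. It was also 0 with the replicate block. The numbers were not taken to pair libraries, since same-numbered libraries correlated at 0.011, 0.138, -0.454 and 0.550 in their deviations. Over the fits without 1 library, the log2 fold of Fn1 ran from -0.59 to 0.034 and that of Spp1 from -0.21 to 0.22, above 0 for both only without the vehicle tumour of replicate 4. DESeq2 passed 11 of the named genes that edgeR did not, beside 174 of the 35842 genes given to it.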

Other observations

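A barcode of another immune cell lay among the cells that held some of the 8 genes. It had 2714 UMIs, of which 1348 were of the B cell list, 825 of Igkc and 521 of Ighm, the genes of the immunoglobulin light chain kappa and heavy chain mu, and it held 7 UMIs of Cd74 as its only rule gene. It was the only one of the 641 such barcodes with at least 3 genes of the list, and none of the 177 members and none of the 4083 cells with none of the 8 had as many. The list summed to 7.44 per 10,000 in the cells with some of the 8, and to 0.199 without this barcode, equal to the level in the cells with none.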
